A study of Mus musculus with 6 samples.

Results

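The genes considered here are 10 neighbours of Gfi1 on mouse chromosome 5: Cdc7, Btbd8, Glmn, Rpap2, Evi5, Rpl5, Fam69a, Mtf2, Tmed5 and Dr1. They were chosen by position, as genes that flank the Gfi1 locus, though with earlier results of these data known. They are not all the genes of that stretch. Of the 10, 9 were among the 14865 genes with values and all 9 passed the minimum of 40 normalized reads in at least 1 library that 14455 genes passed. Btbd8 was not analysed here. The comparison asks whether genes beside the Cre knock-in differed in expression between carriers and wild-type mice.

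RNA of the cochlear duct, the coiled tube of the inner ear that holds the organ of Corti, was taken from C57BL/6 mice at postnatal day 8 and sequenced in 6 libraries. The 3 Gfi1+/+ libraries came from 1 mouse each, and each of the 3 Gfi1cre/+ libraries was a pool of 3 mice. Gfi1cre/+ mice carry 1 Gfi1 allele in which a Cre recombinase sequence takes the place of Gfi1 coding exons, and no Gfi1+/+ mouse carries Cre. The line began on a background that mixed 129S6 with C57BL/6J and was then kept on C57BL/6J, so in Gfi1cre/+ the knock-in and any stretch of DNA inherited with it cannot be told apart. A value is given as normalized reads, which is the number of reads counted on a gene after division by the library's size factor, and it covers all cells of the duct, so that fewer cells of a type and less RNA per cell cannot be told apart. Reads counted on genes came to between 13603908 and 19359753 per library.

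Gfi1 encodes a zinc finger repressor of transcription that inner ear hair cells and several blood lineages need. It is known, as is Evi5, as a place where retroviruses insert in rodent lymphomas, and an insertion in this stretch can alter more than 1 gene. A targeted allele can likewise affect genes that lie beside it. Most of the neighbours act in functions that all cells share: DNA replication (Cdc7), RNA polymerase II and its regulation (Rpap2, Dr1), ribosomes (Rpl5), Polycomb repression (Mtf2), ubiquitin ligases (Glmn), membrane traffic (Evi5, Tmed5) and the endoplasmic reticulum (Fam69a).

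The libraries differed in ways that bear on every comparison of genotypes. The summed level of 4 Y-linked genes was at most 2.10 normalized reads in Gfi1+/+ and 794, 902 and 1621 in Gfi1cre/+ replicates 1, 2 and 3, with Xist at 7338 to 8138 against 5359, 4987 and 2301, so that sex and genotype cannot be told apart. Summed neuron markers reached 10009 in Gfi1+/+ replicate 1 and between 1814 and 3701 in the other 5 libraries, with all 10 markers lower in Gfi1cre/+. All 9 erythroid markers were higher in Gfi1cre/+, summing to 29478 to 43837 in Gfi1+/+ and 38358 to 66386 in Gfi1cre/+. Hair cell markers summed to 9362 to 10588 in Gfi1+/+ and 9099 to 9428 in Gfi1cre/+, with 8 of 9 lower. Among these 8 is Gfi1, the targeted gene itself. Those of the duct epithelium summed to 74866 to 82117 and 78852 to 82738, with 4 of 10 lower, so both kinds of marker were well detected in this tissue. The part of these shifts in the values of the neighbours was not tested.

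Gfi1 lies on the minus strand of chromosome 5 at 107716657 to 107726036 in GRCm38. Its level was 147, 160 and 152 normalized reads in Gfi1+/+ and 136, 130 and 139 in Gfi1cre/+. Every Gfi1cre/+ library was below every Gfi1+/+ library, but the log2 fold change was only -0.18 (SE 0.0975, 95% interval -0.40 to 0.04) and did not pass the test (adjusted p = 0.999, limma). In newborn cochleae, the paper found by RT-qPCR less transcript of exons that Cre replaces and no change for exons that both alleles keep. Which part of the remaining transcript of the targeted allele adds reads to the count in these day 8 libraries was not tested.

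On the lower-coordinate side, distances from the start of Gfi1 being negative, lay Cdc7 (plus strand, 106964322 to 106984432, start at -762 kb), Btbd8 (plus strand, 107437997 to 107511207), Glmn (minus strand, 107548967 to 107597888) and Rpap2 (plus strand, 107597373 to 107661838). On the other side lay Evi5 (minus strand, 107744795 to 107875107), Rpl5 (plus strand, 107900502 to 107909005), Fam69a (minus strand, 107908053 to 107987085), Mtf2 (plus strand, 108065674 to 108109004), Tmed5 (minus strand, 108106366 to 108132620) and Dr1 (plus strand, 108268897 to 108280526, start at 543 kb). Several of these genes touch. Glmn and Rpap2 are read away from each other from starts 515 bases apart and share 516 bases, whereas Rpl5 and Fam69a converge and share 953 bases and Mtf2 and Tmed5 converge and share 2639. Each of these touching pairs lies on opposite strands, and since the methods do not give the strand setting of the counting, reads from the shared bases of a pair cannot be assigned to either gene here.

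**Figure D1:**
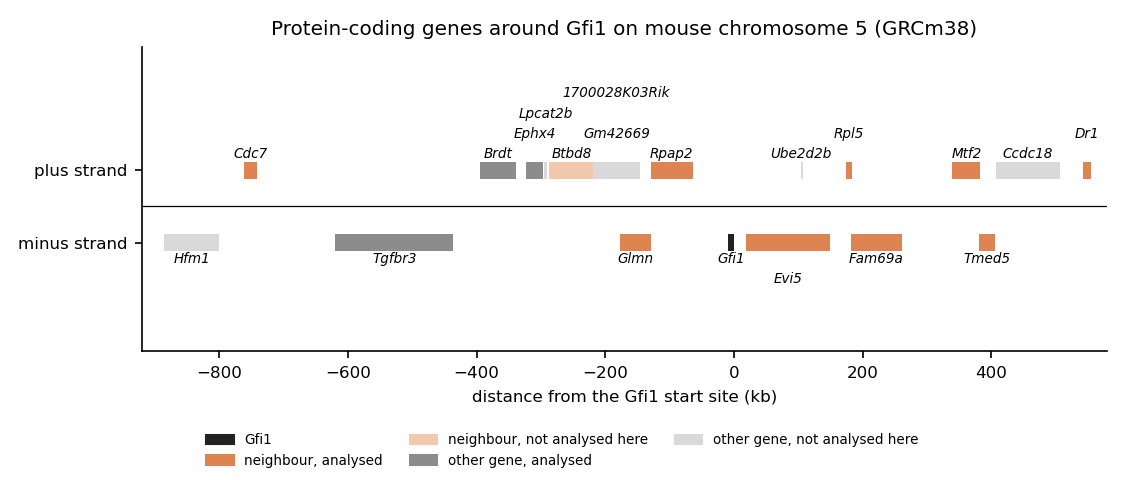
Protein-coding genes around Gfi1, drawn to scale in the GRCm38 annotation by strand (rows) against the distance from the Gfi1 start in kb, with Gfi1 in black, the neighbours in orange and other genes in grey (paler where not analysed). The overlapping ends of Glmn and Rpap2, of Rpl5 and Fam69a and of Mtf2 and Tmed5 can be seen.

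The promoters of 4 neighbours are printed to show the sequence at the starts of the genes that the results describe most closely. They are those of Tmed5, the neighbour with the largest difference between genotypes, of Mtf2, which runs into it from the other side, and of Glmn and Rpap2, whose first windows lie close together. Each is the first window listed for its gene by RefSeq in GRCm38.p6, from 250 bases before to 50 bases after the start, 5′ to 3′ on the strand of the gene, with each CG dinucleotide, the place where vertebrate DNA is methylated, in capitals.
Tmed5, minus strand, chr5:108132571-108132870: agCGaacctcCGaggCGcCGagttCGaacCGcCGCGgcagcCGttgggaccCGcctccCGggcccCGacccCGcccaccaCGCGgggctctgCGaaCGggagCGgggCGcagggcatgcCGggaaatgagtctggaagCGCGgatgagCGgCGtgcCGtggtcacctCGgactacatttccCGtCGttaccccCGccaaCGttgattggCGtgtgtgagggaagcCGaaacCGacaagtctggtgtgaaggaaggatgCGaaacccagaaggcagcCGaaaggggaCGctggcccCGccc
Mtf2, plus strand, chr5:108065424-108065723: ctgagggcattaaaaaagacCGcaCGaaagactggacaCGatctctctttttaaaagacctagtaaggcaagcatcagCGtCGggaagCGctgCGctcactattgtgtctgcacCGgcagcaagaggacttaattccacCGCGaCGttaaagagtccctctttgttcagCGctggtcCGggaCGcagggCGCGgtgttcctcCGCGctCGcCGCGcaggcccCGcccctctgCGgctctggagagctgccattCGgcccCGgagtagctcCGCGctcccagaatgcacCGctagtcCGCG
Glmn, minus strand, chr5:107597839-107598138: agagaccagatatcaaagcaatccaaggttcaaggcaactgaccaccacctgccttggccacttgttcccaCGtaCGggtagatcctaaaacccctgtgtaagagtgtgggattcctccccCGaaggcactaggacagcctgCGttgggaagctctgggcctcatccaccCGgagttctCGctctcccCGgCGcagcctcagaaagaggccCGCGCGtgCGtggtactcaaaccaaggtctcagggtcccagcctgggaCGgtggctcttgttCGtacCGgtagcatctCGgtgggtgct
Rpap2, plus strand, chr5:107597123-107597422: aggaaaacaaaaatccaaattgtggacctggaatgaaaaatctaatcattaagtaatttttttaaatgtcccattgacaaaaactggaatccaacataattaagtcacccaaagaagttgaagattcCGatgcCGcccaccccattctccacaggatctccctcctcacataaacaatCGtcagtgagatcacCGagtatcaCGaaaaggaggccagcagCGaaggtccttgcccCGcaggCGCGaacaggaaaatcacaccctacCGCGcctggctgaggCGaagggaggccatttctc
The Tmed5 window held 37 CG dinucleotides, more than 94.4% of the 32851 promoter windows, whose median is 7, and its start lies 255 bases from that of Ccdc18, a gene read the other way that was not analysed here. The Mtf2 window held 30, the Glmn window 16 and the Rpap2 window 12, and further windows listed for Glmn and Rpap2 held 28 and between 21 and 34. A second window of Mtf2, farther along the gene, held only 2, more than 14.1% of all windows. Start sites rich in CG dinucleotides are typical of genes that most cells use. The letters AAATCAC, which hold the core that Gfi1 is known to bind, were searched on both strands and occurred in 1 window of the neighbours, that of Rpap2 printed above, at position 253 on its plus strand. Of all 32851 windows, 3.2% held these letters on either strand. Some neighbours had more than 1 window searched, and with so few windows nothing is read from this 1 match. No RefSeq window was listed for Fam69a.

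Levels per kb of exon spread over a wide range. In Gfi1+/+ the mean level per kb was 311 ± 19.3 normalized reads for Fam69a, 154 ± 7.27 for Dr1, 117 ± 1.78 for Evi5, 90.6 ± 5.38 for Mtf2, 57.1 ± 9.70 for Rpap2, 36.1 ± 3.16 for Rpl5, 30.1 ± 3.69 for Glmn, 28.5 ± 0.206 for Tmed5 and 23.9 ± 6.35 for Cdc7 (SD, n = 3). Gfi1 stood among them at 48.0 ± 2.11 per kb. Genes next to each other in this order did not overlap in their Gfi1+/+ libraries until Glmn, Tmed5 and Cdc7, which all overlapped with each other. Without division by length, Evi5 and Fam69a had more normalized reads than 69.8% and 69.1% of the tested genes over all 6 libraries, and Glmn more than only 12.3%.

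The position of Rpl5 in this order needs care. Rpl5 is a protein of the large ribosomal subunit, and its mean of 136 normalized reads was below the median of 360 over 70 ribosomal protein genes, of which 18 were lower still. Of the stretches of 50 bases in its longest coding transcript, 93.8% also occurred in transcripts of 15 other annotated genes, among them Gm15500 and the pseudogene Rpl5-ps1, and the authors kept uniquely mapped reads. Fam69a, which converges on Rpl5, is also among the 15. Matches on either strand were counted, so bases that overlapping genes share at 1 place in the genome are included. The same share was 33.8% for Fam69a, where the only other gene was Rpl5 and the stretches lie in their shared end of 953 bases. It was below 10% for Glmn (9.16%), Mtf2 (8.68%), Rpap2 (7.58%), Evi5 (6.22%) and Tmed5 (2.67%). It was 0% for Cdc7 and Dr1. The values of Rpl5 are therefore uncertain as levels, as to a lesser degree are those of Fam69a through the bases it shares with Rpl5. The authors' reads were paired and longer than 50 bases, so these shares do not measure the reads lost.

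Of the 9 neighbours, 5 had a lower and 4 a higher mean log2 level in Gfi1cre/+, where 50.1% of all tested genes were lower. The median log2 fold change was -0.02 over the neighbours and -0.000116 over all tested genes. At an unadjusted p under 0.05 by limma, 1 of the 9 neighbours was called, Tmed5, which was lower, beside 3.04% of all tested genes in either direction, 2.02% lower and 1.02% higher. No neighbour passed an adjusted p of 0.05 (adjusted p = 0.999 for all 9, limma), a threshold that 0.0277% of the tested genes passed. The edgeR quasi-likelihood test and DESeq2 on the recovered reads each called 1 neighbour at an unadjusted p under 0.05, again Tmed5, beside 3.64% and 2.59% of all tested genes, and 0 at the adjusted threshold. The libraries of the genotypes did not overlap for 1 neighbour, Tmed5 with lower values, beside 7.52% of all tested genes, of which 4.07% were lower and 3.45% higher. A change of more than 2-fold together with an unadjusted p under 0.05 was seen for 0 neighbours and for 0.47% of the tested genes.

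**Figure D2:**
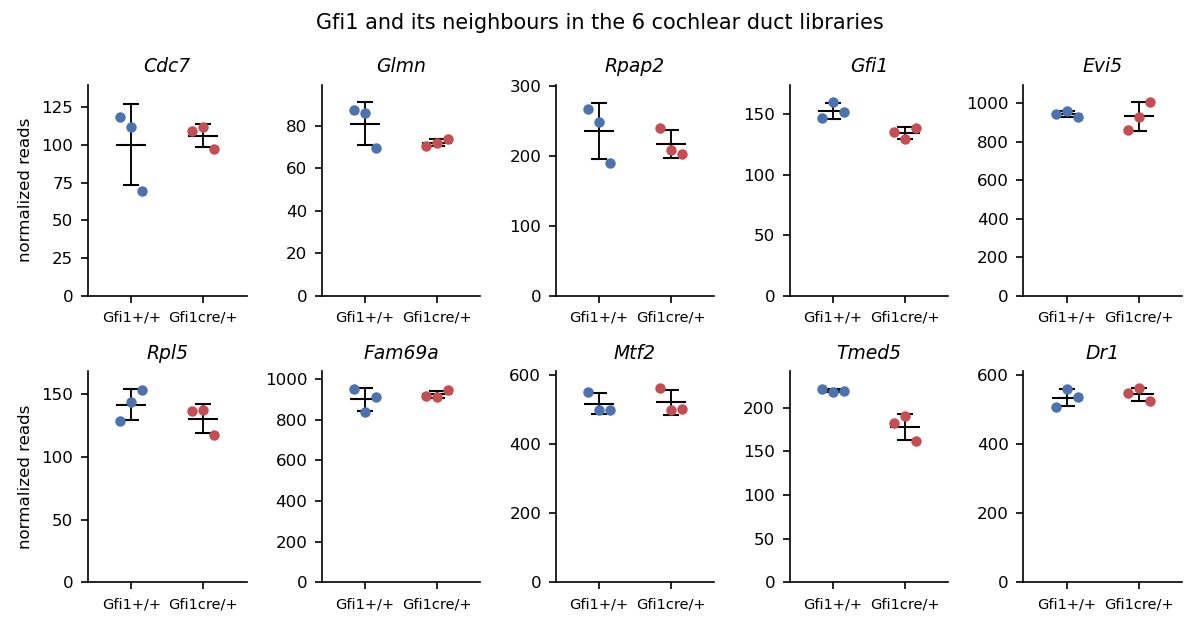
Normalized reads (vertical axes, from 0) of Gfi1 and the 9 neighbours in the 3 Gfi1+/+ (blue) and 3 Gfi1cre/+ (red) libraries, ordered by position on chromosome 5, with replicates 1 to 3 from left to right and the mean and SD in black. The genotypes are apart for Gfi1 and Tmed5 and overlap in the other 8 panels.

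Cdc7, the kinase that sets off DNA replication by acting on the Mcm helicase, was at 119, 112 and 69.6 normalized reads in Gfi1+/+ and 109, 112 and 97.2 in Gfi1cre/+. The low library was Gfi1+/+ replicate 3, and the genotypes overlapped. Its log2 fold change was 0.12 (SE 0.199, 95% interval -0.33 to 0.57), the widest interval of the 9, and without that library it was -0.12.

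Glmn, a protein that binds Rbx1 and holds cullin ubiquitin ligases in check, was at 87.6, 85.9 and 69.6 normalized reads in Gfi1+/+ and 70.5, 71.9 and 73.6 in Gfi1cre/+. Replicate 3 of Gfi1+/+ was again the lowest, below all 3 Gfi1cre/+ libraries. Rpap2, a phosphatase of the RNA polymerase II tail, was at 268, 249 and 191 in Gfi1+/+ and 241, 209 and 204 in Gfi1cre/+, with the same library lowest. The log2 fold change was -0.16 (SE 0.149, 95% interval -0.50 to 0.17) for Glmn and -0.10 (SE 0.134, 95% interval -0.40 to 0.20) for Rpap2. Both genes of this head-to-head pair thus had a lower mean in Gfi1cre/+ with overlapping libraries. The value of Rpap2 depended on the Gfi1+/+ libraries: it was -0.0039 without Gfi1+/+ replicate 1, with an unadjusted limma p of 0.977, and -0.25 without Gfi1+/+ replicate 3, with an unadjusted limma p of 0.0387. Without replicate 3, 2 rather than 1 of the neighbours were called at that threshold, beside 16.2% of all tested genes. That of Glmn ran from -0.27 to -0.10 when 1 library at a time was dropped.

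Evi5, a regulator of Rab11 traffic and of the cell cycle whose end lies nearest to Gfi1, was at 942, 957 and 928 normalized reads in Gfi1+/+ and 858, 926 and 1008 in Gfi1cre/+. The Gfi1+/+ libraries lay within the range of the Gfi1cre/+ ones. The log2 fold change was -0.02 (SE 0.0681, 95% interval -0.18 to 0.13).

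Rpl5 was at 128, 143 and 153 normalized reads in Gfi1+/+ and 137, 138 and 117 in Gfi1cre/+, with overlap and a log2 fold change of -0.12 (SE 0.118, 95% interval -0.39 to 0.15), which ran from -0.19 to -0.04 with 1 library dropped. Fam69a, of a small family of kinase-like proteins of the endoplasmic reticulum, was at 948, 839 and 912 in Gfi1+/+ and 915, 911 and 944 in Gfi1cre/+. Its log2 fold change was 0.04 (SE 0.0627, 95% interval -0.10 to 0.18), and its genotypes overlapped too. Rpl5 and Fam69a share 26.7% and 33.0% of their exon bases with other genes, mostly with each other, and the sign of their difference was not the same.

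Mtf2, a Polycomb-like protein that brings the repressive complex with Ezh2 to CpG islands, was at 552, 497 and 500 normalized reads in Gfi1+/+ and 562, 498 and 503 in Gfi1cre/+. In both genotypes replicate 1 was highest and the other 2 libraries were close together. The log2 fold change was 0.01 (SE 0.0757, 95% interval -0.16 to 0.18). Dr1, a repressor that binds the TATA-binding protein Tbp, was at 509, 559 and 535 in Gfi1+/+ and 547, 562 and 524 in Gfi1cre/+, with overlap and a log2 fold change of 0.03 (SE 0.0655, 95% interval -0.12 to 0.18).

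Tmed5, a member of the Tmed family of cargo receptors between the endoplasmic reticulum and the Golgi, was at 221, 218 and 219 normalized reads in Gfi1+/+ and 182, 190 and 161 in Gfi1cre/+. All 3 Gfi1cre/+ libraries lay below all 3 Gfi1+/+ libraries, with replicate 3 lowest. The mean was 219 ± 1.59 in Gfi1+/+ and 178 ± 14.8 in Gfi1cre/+ (SD, n = 3), a ratio of 0.810. The log2 fold change was -0.31 (SE 0.0925, 95% interval -0.51 to -0.10), with an unadjusted limma p of 0.0092 and an adjusted limma p of 0.999, so the difference did not pass the test across genes. The exact permutation test over the 3 libraries against 3, two-sided, gave p = 0.1, the smallest it can give in this design. Of all tested genes, 5.61% had an absolute log2 fold change at least as large.

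The depth behind the Tmed5 values was modest. Before division by the size factors, 179, 208 and 208 reads were counted on Tmed5 in Gfi1+/+ and 209, 214 and 171 in Gfi1cre/+. These counts overlap between genotypes, since the size factors were 0.810 to 0.955 in Gfi1+/+ and 1.06 to 1.15 in Gfi1cre/+. Counting error alone would give each library a coefficient of variation of 6.84% to 7.65%. The Gfi1+/+ libraries varied by 0.723%, far less than counting error alone gives, and the Gfi1cre/+ libraries by 8.30%, so the small SD in Gfi1+/+ should not be read as precision. Exact Poisson 95% intervals were 190 to 256, 189 to 249 and 191 to 251 normalized reads in Gfi1+/+ and 158 to 208, 165 to 217 and 138 to 187 in Gfi1cre/+, and they cover counting error only. The interval of each Gfi1+/+ library overlapped those of Gfi1cre/+ replicates 1 and 2, but not that of replicate 3. When 1 library at a time was dropped, the value for Tmed5 stayed between -0.36 and -0.24 and its unadjusted limma p between 0.0101 and 0.0428. The fold change nearest 0 was that without Gfi1cre/+ replicate 3, the library with the highest Y-linked sum and the lowest Xist, and a part of sex in the Tmed5 values was not tested. Mtf2, which shares 395 exon bases with Tmed5, or 5.14% of those of Tmed5, had a log2 fold change of 0.01, and the difference between the 2 genes was not tested.

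**Figure D3:**
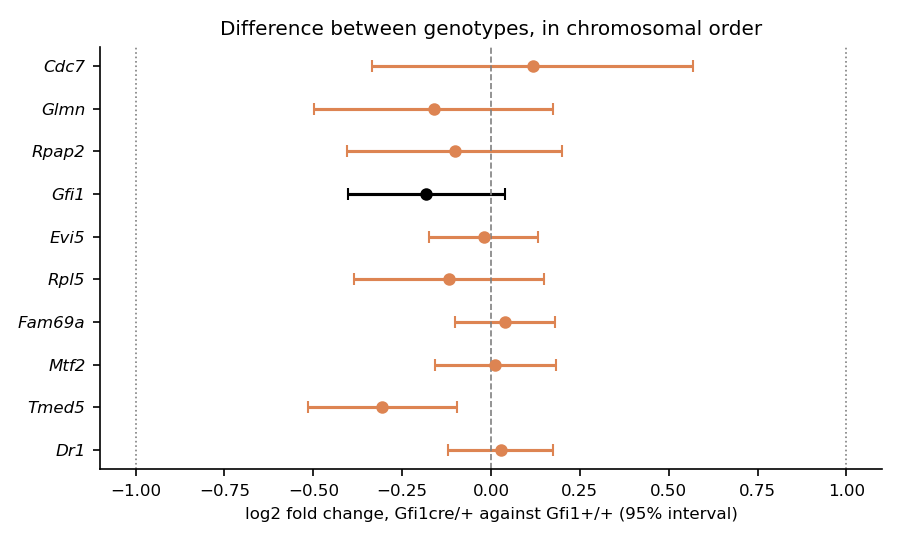
Log2 fold change of Gfi1cre/+ against Gfi1+/+ with its 95% interval (horizontal axis) for Gfi1 (black) and the 9 neighbours (orange) in the order of their positions, from Cdc7 at the top to Dr1. The interval of Tmed5, -0.51 to -0.10, is the only one that leaves out 0, and all lie inside a 2-fold change either way (dotted lines).

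The intervals also limit how large a difference of the other neighbours could be. For all 9 neighbours the 95% interval left out a 2-fold change in either direction, with the lowest bound at -0.51 for Tmed5 and the highest at 0.57 for Cdc7. For 6 of them, Rpap2, Evi5, Rpl5, Fam69a, Mtf2 and Dr1, the interval lay within 25% either way. These bounds are for the RNA of both alleles together. Only 1 allele is targeted in Gfi1cre/+, so a change confined to that allele would be smaller in this sum. The level of each allele was not measured. Apart from Tmed5, the lowest log2 fold change was -0.16 and the highest 0.12, and 8 of the 9 were under 0.2 in size, as were 89.1% of all tested genes. Replicate spread was not the same in both genotypes. The median SD on the log2 scale was 0.0903 in Gfi1+/+ and 0.106 in Gfi1cre/+ over the neighbours, and 0.119 and 0.0737 over all tested genes. In the pooled Gfi1cre/+ libraries 5 of the 9 neighbours varied less, as did 10294 of all 14455 tested genes.

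Of the other protein-coding genes between Cdc7 and Dr1, 3 were analysed and none was called. Tgfbr3, a co-receptor of the TGF-beta family, was at 874, 915 and 997 normalized reads in Gfi1+/+ and 811, 853 and 911 in Gfi1cre/+, a log2 fold change of -0.11 (SE 0.0709) with overlapping libraries. Brdt and Ephx4 were low, with means under 75 in each genotype, and had log2 fold changes of 0.04 (SE 0.196) and -0.07 (SE 0.183).

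A wider stretch of chromosome 5 was then considered, with distance taken between gene starts. Within 1 Mb, 2 of 25 tested genes (8%), Gfi1 counted among the 25, were called at an unadjusted limma p under 0.05, Tmed5 and Cplx1. From 1 to 5 Mb it was 5 of 60 (8.33%), and from 5 to 20 Mb 22 of 239 (9.21%). On the rest of chromosome 5 it was 18 of 580 (3.10%), and on other chromosomes 392 of 13551 (2.89%). Among the autosomes and X, 20 chromosomes in all, chromosome 5 had the highest share, 47 of 904 genes or 5.20%, with the others between 1.40% and 3.86%. On the Y chromosome 4 of 6 tested genes were called. This rank depended on the libraries and the tool: without Gfi1cre/+ replicate 3 it was 17 of 904, or 1.88% beside 1.72% of all genes, which ranked 9. It was 23 of 904 without Gfi1cre/+ replicate 2 (rank 1), 27 without Gfi1+/+ replicate 1 (rank 2), 29 without Gfi1cre/+ replicate 1 (rank 2), 160 without Gfi1+/+ replicate 3 (rank 4) and 29 by DESeq2 (rank 4).

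Of the 29 genes called within 20 Mb, 19 were lower and 10 higher in Gfi1cre/+, and 0 passed an adjusted p of 0.05 by limma. By the edgeR quasi-likelihood test 31 were called at an unadjusted p under 0.05 and by DESeq2 19, and neither called any at the adjusted threshold. The calls were uneven about Gfi1: 3 of 94 genes (3.19%) at lower coordinates and 26 of 229 (11.4%) at higher ones, Gfi1 itself left aside, a division made after the values were seen. The share within 20 Mb was above that of all tested genes in each of the 18 alternative analyses, by a factor of 1.32 to 4.36. The lowest factor was that without Gfi1+/+ replicate 3, where 21.3% of these genes and 16.2% of all genes were called. The count itself depended on the libraries used: it was 69 without Gfi1+/+ replicate 3, 18 without Gfi1+/+ replicate 1, and 16, 12 and 11 without Gfi1cre/+ replicates 1, 2 and 3, while that within 5 Mb was 19 without Gfi1+/+ replicate 3 and 3 without Gfi1cre/+ replicate 2 or 3. Genes that lie together can vary together and are not independent, so no test of this share is given.

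**Figure D4:**
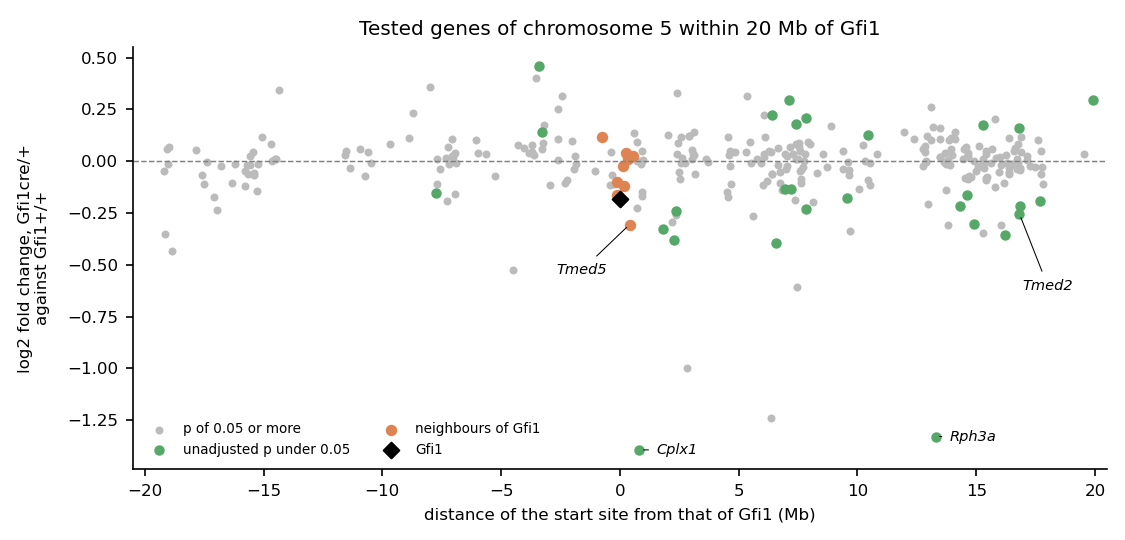
Log2 fold change of Gfi1cre/+ against Gfi1+/+ (vertical axis) for the 324 tested genes of chromosome 5 within 20 Mb of Gfi1, by the distance of their start from that of Gfi1 in Mb, with the neighbours in orange, Gfi1 as a black diamond and other genes with an unadjusted p under 0.05 in green. Of the 29 called genes, Tmed5 among them, 26 lie to the right of Gfi1.

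Of the 7 genes called within 5 Mb of Gfi1, 5 besides Tmed5 are named here by the size of their log2 fold change. They were of differing kinds. Spp1, also called, was left out by that rule. It starts at -3.29 Mb and was higher in Gfi1cre/+, with a log2 fold change of 0.14 and an unadjusted limma p of 0.0379. The unadjusted limma p of Spp1 was over 0.05 without Gfi1+/+ replicate 1 (0.066) and without Gfi1cre/+ replicate 1 (0.101), 2 (0.114) or 3 (0.0799). With array weights it was 0.0539. Cplx1, a complexin of synaptic vesicle release, was at 974, 404 and 209 normalized reads in Gfi1+/+ and 108, 164 and 253 in Gfi1cre/+, a log2 fold change of -1.39 (SE 0.493). Its genotypes overlapped, and the library with the highest Cplx1, Gfi1+/+ replicate 1, was also that with the highest neuron markers. Mepe, a gene of bone and tooth matrix, was at 259, 219 and 308 in Gfi1+/+ and 279, 404 and 405 in Gfi1cre/+, a log2 fold change of 0.46 (SE 0.166), also with overlap. With 1 library at a time dropped, the log2 fold change of Cplx1 ran from -1.92 to -0.81 and its unadjusted p reached 0.0811 without Gfi1cre/+ replicate 1 and 0.0530 without replicate 2. That of Mepe ran from 0.34 to 0.64, and its unadjusted p was 0.0799 without Gfi1+/+ replicate 2 and 0.0910 and 0.0883 without Gfi1cre/+ replicates 2 and 3. All 8 bone and cartilage markers were higher in Gfi1cre/+, with sums of 304940 to 424360 in Gfi1+/+ and 366870 to 391170 in Gfi1cre/+. Among these 8, Ibsp and Spp1 start beside Mepe, at -3.43 and -3.29 Mb from Gfi1, and the 1 marker called was Spp1. The list is therefore not independent of this stretch of chromosome 5.

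The remaining 3 of the 5 named were lower in every Gfi1cre/+ library than in any Gfi1+/+ library. They were picked by an unadjusted p under 0.05, which favours such a separation. Within 5 Mb the genotypes did not overlap for 11 of 85 tested genes (12.9%), beside 7.52% of all tested genes. Zfp932, a zinc finger gene, was at 175, 192 and 179 normalized reads against 167, 131 and 124, a log2 fold change of -0.38 (SE 0.127). Crlf2, a cytokine receptor, was at 254, 266 and 233 against 221, 178 and 202, a log2 fold change of -0.33 (SE 0.103). Gtpbp6, a GTP-binding protein, was at 175, 176 and 190 against 157, 155 and 145, a log2 fold change of -0.24 (SE 0.0927). These 3 genes start 2.27, 1.83 and 2.38 Mb from Gfi1 on the same side as Tmed5, and their differences were of similar size to its -0.31. Their unadjusted limma p-values were 0.0149, 0.0113 and 0.0287, and the adjusted limma p was 0.999 for each. Crlf2 stayed under an unadjusted p of 0.05 with every library dropped in turn and by DESeq2. Zfp932 did not without Gfi1cre/+ replicate 2 (0.0551) or 3 (0.0644). Gtpbp6 did not without Gfi1+/+ replicate 3 (0.0797), Gfi1cre/+ replicate 2 (0.0520) or 3 (0.0969). Nor did it with the replicate block (0.0563), after quantile normalization (0.0806, limma) or by DESeq2 (0.135).

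Genes whose products act with those of the neighbours or are related to them, called partners here, were read from a list of 56, all of which were tested. Of these, 2 were called at an unadjusted limma p under 0.05, 1 higher and 1 lower, beside 3.04% of all tested genes, and 0 at the adjusted threshold. With so few calls, nothing is read from the counts for each neighbour. The libraries of the genotypes did not overlap for Mcm5 and Tmed2, the called partners, and also not for Cul1 and Tbp, which were not called. The same held for 7.52% of all tested genes, and a call at this threshold favours such a separation. The median log2 fold change of the 56 was -0.01.

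Among the partners of Cdc7, 1 of 8 was called. Mcm5, a subunit of the replicative helicase, was at 269, 274 and 205 normalized reads in Gfi1+/+ and 332, 304 and 290 in Gfi1cre/+, a log2 fold change of 0.32 (SE 0.12) with an unadjusted limma p of 0.0274. All Gfi1cre/+ libraries were above all Gfi1+/+ libraries. The unadjusted p of Mcm5 was over 0.05 without Gfi1+/+ replicate 3 (0.0658, log2 fold change 0.18), Gfi1cre/+ replicate 1 (0.0990) or replicate 2 (0.0605). The other 7, among them Mcm2, Mcm3 and Dbf4, the activating subunit of Cdc7, had log2 fold changes from -0.09 to 0.16.

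Among the relatives of Tmed5, 1 of 7 was called. Tmed2 was at 1232, 1132 and 1196 normalized reads in Gfi1+/+ and 1025, 1008 and 952 in Gfi1cre/+, again with no overlap and with replicate 3 lowest. Its log2 fold change was -0.25 (SE 0.0592) with an unadjusted limma p of 0.0020 and an adjusted limma p of 0.999. Tmed2 also lies on chromosome 5, 16.8 Mb from Gfi1, and counts among the 29 genes above. The other 6 members of the family, Tmed1, Tmed3, Tmed4, Tmed7, Tmed9 and Tmed10, had log2 fold changes between -0.06 and 0.02.

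None of the partners of the other neighbours was called. The 10 genes listed with Mtf2, of the Polycomb complex and its cofactors and relatives of Mtf2, were centred on a log2 fold change of -0.0042. Ezh2 was at 0.06 and Suz12 at -0.01. Phf19, another Polycomb-like protein, was at 0.30 (SE 0.17) with overlapping libraries and an unadjusted limma p of 0.112. Of the 9 partners of Dr1, the values ran from -0.10 for Drap1, with which it forms a dimer, to 0.11 for Csrp2bp. The 5 genes listed with Rpl5 ran from -0.13 for Rpf2 to 0.10 for Heatr3, with Rpl11 at -0.03 and Mdm2 at -0.01. The 8 listed with Rpap2 lay between -0.09 and 0.04, the 4 cullin ligase genes listed with Glmn between -0.07 and 0.06, and the 3 listed with Evi5 between -0.11 and 0.03. Fam69b and Fam69c, the relatives of Fam69a, were at -0.01 and 0.12.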

How the data were processed

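The data are 6 RNA-seq libraries of the mouse cochlear duct, 3 for each genotype. The authors used TopHat to align reads to mm10 and HTSeq to count the uniquely mapped ones per gene, and dropped genes that fewer than 40 reads covered. Annotation, strand setting and versions were not given in the sources used here. The deposited values are a signal per gene and library. The methods name quantile normalization, but 100% of the values in each library were whole multiples of 1 step, that is, reads divided by a size factor, and whole reads were recovered within rounding.

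Genes that reached 40 normalized reads in any library were tested by limma 3.58.1 in R 4.3.3. The model held genotype alone, on log2(value + 1), and the moderated test was two-sided with a trend in the variance. P-values were adjusted by Benjamini-Hochberg over 14455 genes. A fold change on this scale understates that of low genes. A call at an unadjusted p under 0.05 is descriptive. edgeR 4.0.16 and DESeq2 1.42.0 on recovered reads, other pseudocounts, minima and scalings, a replicate block and each library left out were alternatives. The steps were tested on simulated data. Each Gfi1+/+ library is 1 mouse and each Gfi1cre/+ library a pool, so p-values compare animals with pools.

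The neighbours, partner lists and settings were chosen with earlier results of these data known. The genes named are the 10 neighbours, Gfi1, up to 5 others called within 5 Mb of Gfi1 and up to 5 called partners, taken by the size of their log2 fold change, and Xist with the summed Y-linked genes. Further genes were named as examples after their values were seen. Positions and exon lengths came from GENCODE M21 (GRCm38), to which 14796 of 14865 identifiers matched, and promoters from RefSeq.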

Additional observations from a re-analysis of the deposited data

How the results depend on the processing

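Over 175 fits of single genes under 18 alternatives, 9 changed sign and 0 passed an adjusted p of 0.05 by any tool. Tmed5 kept its direction and an unadjusted p under 0.05 in all 17 alternatives that tested it, with a smallest adjusted p of 0.204, without Gfi1+/+ replicate 3. A minimum mean of 200 normalized reads dropped Tmed5 from the genes tested, which left 0 neighbours called and 4 genes within 5 Mb. Array weights called 11.5% of all tested genes, 15 genes within 5 Mb and 56 within 20 Mb, and turned Cdc7 to -0.0374 and Dr1 to -0.0103. DESeq2 gave 19 calls within 20 Mb. The causes were not tested.

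With each library left out, 1 to 2 neighbours were called where 1.49% to 16.2% of all tested genes were, and 1 to 4 did not overlap where 13.5% to 34.5% of all tested genes did not. Each of these was highest without Gfi1+/+ replicate 3. Calls numbered 3 to 19 within 5 Mb, 11 (without Gfi1cre/+ replicate 3) to 69 (without Gfi1+/+ replicate 3) within 20 Mb and 1 (without Gfi1cre/+ replicate 2) to 4 (without Gfi1+/+ replicate 2) among the partners. Log2 fold changes then ran from -0.123 to 0.257 for Cdc7, -0.266 to -0.102 for Glmn, -0.247 to -0.00395 for Rpap2, -0.08 to 0.0357 for Evi5, -0.186 to -0.0423 for Rpl5, -0.0106 to 0.0777 for Fam69a, -0.0434 to 0.061 for Mtf2 and -0.00791 to 0.0603 for Dr1.

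The replicate block called 1 neighbour (Tmed5), 7 genes within 5 Mb (4 lower and 3 higher), 28 within 20 Mb and 3.2% of all tested genes, against 1, 7 (5 lower and 2 higher), 29 and 3.04% without it. Gtpbp6 lost its call under the block. The labels tie no replicate number to a shared litter or batch, and same-numbered libraries correlated in their deviations at -0.0944, 0.107 and -0.0326, so the numbers were not taken as pairs. Not every library correlated best with its own number. With 66 to 277 reads per library on Glmn, Cdc7, Rpl5, Tmed5 and Rpap2, depth limits these 5 more than the others.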
